A study of Rattus norvegicus with 16 samples.

Results

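Heat shock proteins and their cochaperones were examined in rat corneas at the early, inflammatory stage of suture-induced neovascularization, to see which of these genes changed with the sutures and which differed between dexamethasone and antibody treatment. A gene was taken when a probe set carried its symbol alone and the symbol began with *Hspa*, *Hspb*, *Hspd*, *Hspe*, *Hsph*, *Hsp90*, *Dnaja*, *Dnajb* or *Dnajc*, or was *Hsf1*, *Hsf2*, *Bag3* or *Stip1*. This gave 68 of 14217 genes and 105 of 20826 probe sets. RNA of 16 corneas of male Wistar rats aged 12 to 16 weeks had been hybridized to 1 array each, with 4 arrays in each of 4 groups. Naïve corneas had no sutures and no drops. Corneas of the IgG, anti-*Vegf* and dexamethasone groups had 2 sutures placed temporally, 1.5 mm from the limbus. They received 4 drops per day for 2 days of goat IgG, a rat-specific antibody against Vegf or dexamethasone at 1 mg/ml. The antibodies are given at 20 mg/ml in the sample labels and at 20 µg/ml in the study's methods, and the labels of the IgG group name an anti-IgG antibody. For the anti-*Vegf* group the labels name an anti-VEGFA antibody and the methods a goat polyclonal pan-*Vegf* antibody. The sutured groups were compared with naïve corneas that differed from them by the sutures and by the drops together. Each array held a whole piece of cornea, so fewer cells of one type and less RNA per cell cannot be told apart in any value below. Probe sets of *Hsp90aa1*, of *Hspa8* and of *Hspa1a* with *Hspa1b* that carry 2 or more symbols were not analysed here.

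Heat shock proteins are chaperones that bind unfolded or partly folded proteins. Hsp70 proteins (*Hspa* genes) work in cycles of ATP hydrolysis that J proteins (*Dnaja*, *Dnajb* and *Dnajc* genes) start and nucleotide exchange factors (*Hsph1*, *Bag3*) end, Hsp90 proteins act on clients such as steroid hormone receptors, and small heat shock proteins (*Hspb* genes) hold unfolded protein without ATP. The cytosol, the endoplasmic reticulum and the mitochondrion each have their own set, and these sets are known to be induced by the heat shock factors, by the unfolded protein response and by the mitochondrial stress response. The glucocorticoid receptor, to which dexamethasone binds, is itself folded and held by the cytosolic Hsp70 and Hsp90 machinery.

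The promoters that follow belong to chaperone genes whose signals were higher in dexamethasone treated corneas, and they are shown because they hold letters that match the known elements of the heat shock and endoplasmic reticulum stress responses. They are the 250 bases before the gene start in RefSeq (GRCr8), read 5′ to 3′ on the strand of the gene. The capitals mark an endoplasmic reticulum stress element (CCAAT and CCACG 9 bases apart, on either strand) in *Hspa5*, *Hsp90b1* and *Dnajc3*, and a heat shock element of 3 units (GAA, TTC and GAA, or TTC, GAA and TTC, each 2 bases apart) in *Hsph1*.
Hspa5, GRCr8 chr3:38452766-38453015, plus strand: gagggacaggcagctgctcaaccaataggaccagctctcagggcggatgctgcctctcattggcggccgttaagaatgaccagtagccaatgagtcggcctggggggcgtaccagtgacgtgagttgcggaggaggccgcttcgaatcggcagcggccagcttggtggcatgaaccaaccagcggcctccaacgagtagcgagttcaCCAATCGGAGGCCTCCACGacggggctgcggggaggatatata
Hsp90b1, GRCr8 chr7:23012294-23012543, minus strand: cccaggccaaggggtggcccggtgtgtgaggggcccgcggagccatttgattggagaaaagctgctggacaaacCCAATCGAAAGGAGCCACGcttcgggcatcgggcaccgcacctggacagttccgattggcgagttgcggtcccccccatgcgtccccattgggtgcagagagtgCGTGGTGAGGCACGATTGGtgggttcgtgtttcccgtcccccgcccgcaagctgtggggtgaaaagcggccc
Dnajc3, GRCr8 chr15:102432417-102432666, plus strand: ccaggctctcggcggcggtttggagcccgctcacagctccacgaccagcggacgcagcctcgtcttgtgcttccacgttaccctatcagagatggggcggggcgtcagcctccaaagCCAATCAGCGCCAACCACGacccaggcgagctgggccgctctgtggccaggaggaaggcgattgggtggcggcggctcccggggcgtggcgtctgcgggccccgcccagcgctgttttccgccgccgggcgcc
Hsph1, GRCr8 chr12:10427118-10427367, plus strand: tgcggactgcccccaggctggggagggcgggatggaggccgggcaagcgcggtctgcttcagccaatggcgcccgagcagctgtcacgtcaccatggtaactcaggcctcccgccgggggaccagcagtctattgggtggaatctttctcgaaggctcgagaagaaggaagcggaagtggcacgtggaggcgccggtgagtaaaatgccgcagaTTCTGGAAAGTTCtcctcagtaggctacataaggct
*Hspd1* and *Hspe1*, which encode both parts of the mitochondrial chaperonin, lie head to head on chromosome 9, with the starts used for their promoters 290 bases apart. RefSeq's model of *Hspd1* as a whole gene (64073610 to 64084332) reaches beyond its promoter start and just past the start of *Hspe1* (64084327), so the stretch shown lies upstream of *Hspe1* and within the annotated *Hspd1* gene. A run of 18 bases there holds 2 overlapping heat shock elements of 3 units, and the 30 bases around it are printed for that reason, with the run in capitals.
Hspe1 and Hspd1, GRCr8 chr9:64084256-64084285, plus strand: gctcggTTCTAGAACCTTCCGGAAggcccc

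The endoplasmic reticulum stress element began 43 bases before the start of *Hspa5*, 133 bases before that of *Dnajc3*, and 176 and 72 bases before that of *Hsp90b1*. The heat shock element began 36 bases before the start of *Hsph1*. The promoter table held 56 of the 68 genes. In windows of 250 bases before to 50 bases after the start, the stress element was found in 22 of 33469 promoters (0.0657%), 3 of them among the 56. The 3-unit heat shock element was in 267 promoters (0.798%), 4 of them among the 56, namely *Hspd1*, *Hspe1*, *Hsph1* and *Dnaja1*. The same element with only 2 units, which every 3-unit element contains, was in 15.9% of all promoters and in 16 of the 56. No match to any of these elements was found for *Hsf2*, *Dnajb11* and *Hsp90ab1*, which were also called higher with dexamethasone than in naïve corneas. *Hspa1a*, which was called lower, had none either. The matches describe letters in a window and were not tested for use in the cornea.

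Values are log2 signals per probe set, and 1 unit is a doubling of the signal. A gene with several probe sets was read from the one with the highest mean signal, and 26 of the 68 had more than 1. A dim probe set is one that was not above the 40th percentile of its array on at least 4 arrays, and 58 of the 68 genes were above this limit. The 10 dim genes were *Dnajb3*, *Dnajb7*, *Dnajc6*, *Dnajc22*, *Hspa1l*, *Hspa2*, *Hspa4l*, *Hspb2*, *Hspb3* and *Hspb9*. Against naïve corneas a gene was called at an adjusted p under 0.05 in limma with a change of at least 1.5-fold, and with the adjusted p alone when treatments were compared. The labels of the sutured samples name the right eye but not the animal, so p-values measure the spread between these samples. Across the 68 genes, 27 were called in at least 1 of 6 comparisons and 41 in none.

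Markers of the corneal epithelium had a mean log2 signal of about 14.0 on every array, near the top of the signal range, where a change in the mix of tissues would show little. The dimmest of the 7, *Pax6*, had a mean of 12.50. In each sutured group 1 of the 7 was called higher than naïve. Markers of leukocytes rose from a mean of 5.79 in naïve corneas to 7.93, 7.88 and 7.86 in the IgG, anti-*Vegf* and dexamethasone groups, with 4 arrays each. The 12 poly-A control probe sets, which measure transcripts added during labelling, were at 6.94 to 7.60 on IgG arrays and 6.90 to 7.16 on anti-*Vegf* arrays, but at 5.11 to 5.41 on dexamethasone and 4.91 to 5.20 on naïve arrays. The 5′ signal of *Gapdh* minus its 3′ signal was −0.48 to −0.32 on dexamethasone arrays and −0.15 to −0.04 on IgG arrays. It was −0.16 to −0.08 on anti-*Vegf* arrays and −0.43 to −0.16 on naïve arrays. All 8 listed lens markers were measured, 6 of them above the dim limit, and their mean was 7.07 to 9.24 on dexamethasone arrays, 5.36 to 5.50 on IgG, 5.37 to 6.21 on anti-*Vegf* and 5.15 to 6.02 on naïve arrays. Of these 8, 5 were called higher in dexamethasone than in IgG, 5 than in anti-*Vegf* and 7 than in naïve corneas. Control probe sets, the *Gapdh* ends and lens markers thus moved with both comparisons of dexamethasone with an antibody (exact permutation p = 0.0286 for each, the smallest that 4 against 4 arrays allow). Lens markers were also higher on dexamethasone than on naïve arrays (difference 2.37, exact permutation p = 0.0286). The 5′ signal of β-actin minus its 3′ signal was lower with dexamethasone than with IgG (difference −0.46, exact permutation p = 0.0286) and overlapped with anti-*Vegf* (−0.30, exact permutation p = 0.143). IgG arrays also differed from naïve arrays, by 0.23 for *Gapdh* and 0.58 for β-actin (exact permutation p = 0.0286 each). Anti-*Vegf* arrays overlapped with naïve arrays in both. Keratocyte markers, 5 measured and all above the dim limit, were at 11.96 to 12.07 on naïve, 11.12 to 11.76 on IgG, 10.85 to 11.47 on anti-*Vegf* and 11.59 to 11.86 on dexamethasone arrays, lower than naïve in every sutured group and higher with dexamethasone than with anti-*Vegf* (exact permutation p = 0.0286 each), with 2 of the 5 called higher in the latter. The part of these measures in the results was not tested.

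At the limits used, dexamethasone treated corneas had the largest number of called chaperone genes, and against naïve this order depended on the fold limit. Relative to IgG, 15 of 68 were higher and 2 lower, where 7.41% of all genes were called higher and 3.16% lower. Relative to anti-*Vegf*, 13 were higher and 2 lower, where 4.63% of all genes were called higher and 2.5% lower. Relative to naïve corneas, 10 were higher and 3 lower, against 8.19% and 4.45% of all genes. The median log2 difference over the 68 genes was 0.06, 0.09 and 0.09 in these comparisons, beside 0.02, 0.02 and 0.00 over all genes. Both treatment comparisons use the same 4 dexamethasone arrays, so they are not independent of each other. Against naïve without the fold limit, 18 were higher and 10 lower with dexamethasone, and 17 higher and 13 lower with anti-*Vegf*. Of all genes, 2284 were higher and 1765 lower in the first, and 2088 and 2263 in the second. After cyclic loess between arrays the split against IgG was 10 higher and 3 lower, where 847 of all genes were called higher and 541 lower. Without dexamethasone array F26, which had the highest lens markers, the calls were 9 higher and 1 lower against IgG, 6 higher and 2 lower against anti-*Vegf*, and 8 higher and 3 lower against naïve corneas. Calls over all genes fell as well, from 1054 to 670 higher against IgG and from 658 to 421 higher against anti-*Vegf*. Without array F27, with a lens marker mean of 7.07, the calls were 11 higher and 0 lower against IgG and 6 higher and 2 lower against anti-*Vegf*. Of all genes, 676 and 413 were then called higher. Without IgG array F17 there were 9 calls against IgG, and without anti-*Vegf* array F2 there were 8 against anti-*Vegf*. Over all genes these runs gave 730 higher and 325 lower, and 427 higher and 265 lower.

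**Figure D1:**
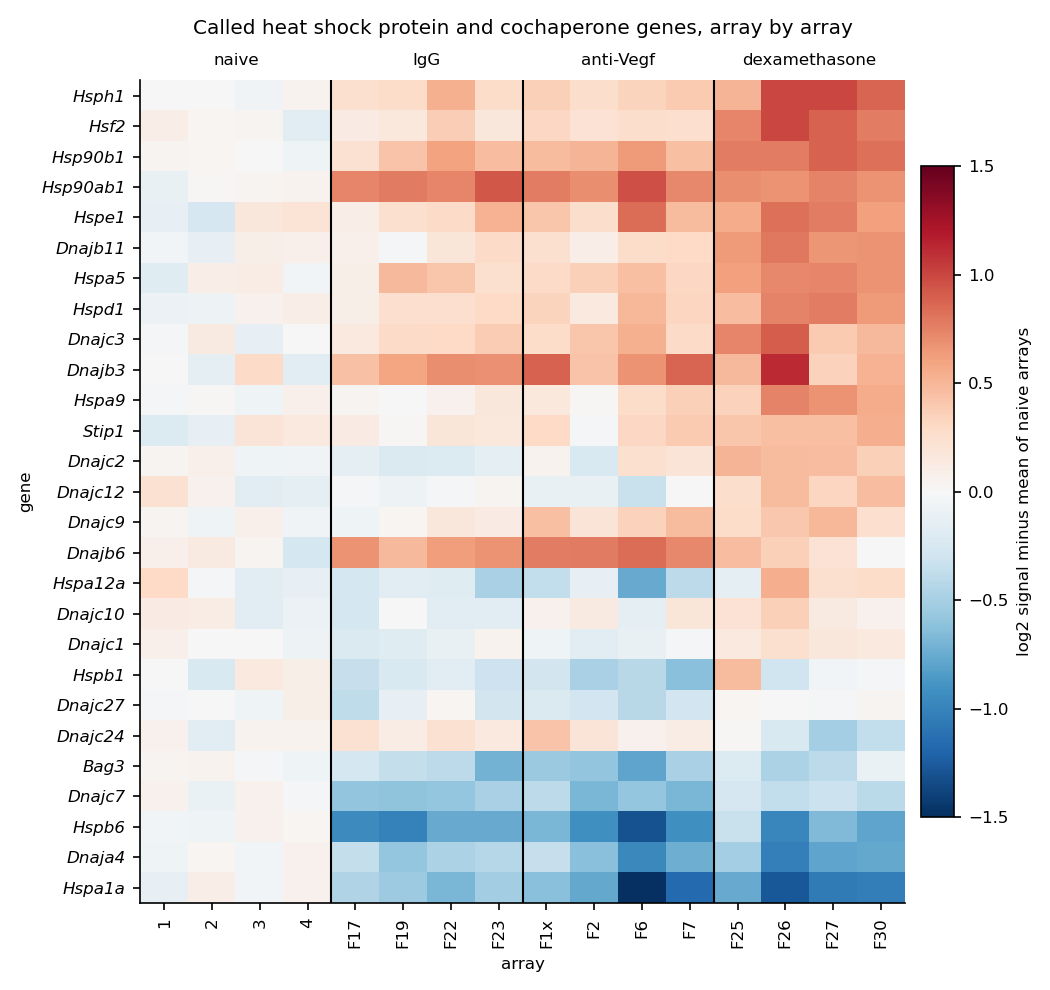
log2 signal minus the mean of the 4 naïve arrays for the 27 genes called in at least 1 comparison, with 1 column per array and 1 row per gene (red higher, blue lower than naïve). *Hsf2* and *Hsp90b1* are redder on each dexamethasone array than on any other array, *Hsp90ab1* is red on the arrays of all sutured groups, and *Hspa1a* and *Hspb6* are blue on all of them.

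Chaperones of the endoplasmic reticulum were among the genes that rose. Of the 10 measured, 6 were called higher in dexamethasone than in IgG corneas (*Hspa5*, *Hsp90b1*, *Dnajb11*, *Dnajc3*, *Dnajc10* and *Dnajc1*), 4 than in anti-*Vegf* and 4 than in naïve corneas, and none was called lower in any comparison. *Dnajb9*, *Hspa13*, *Dnajb12* and *Dnajb14* were not called in any of the 6. The median difference of the 10 genes was 0.31 against IgG, 0.25 against anti-*Vegf* and 0.34 against naïve corneas. Shares of all genes called higher in these comparisons were 7.41%, 4.63% and 8.19%.

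*Hspa5* encodes BiP, the Hsp70 of the endoplasmic reticulum. Its log2 signal was 12.40, 12.50, 12.51 and 12.45 on the dexamethasone arrays, 12.06, 12.14, 12.23 and 12.08 on the anti-*Vegf* arrays, 11.86, 12.27, 12.20 and 12.02 on the IgG arrays and 11.59, 11.88, 11.90 and 11.74 on the naïve arrays. All dexamethasone arrays lay above all others. The log2 difference was 0.38 against IgG (standard error 0.09, adjusted p = 0.0166), 0.34 against anti-*Vegf* (standard error 0.09, adjusted p = 0.0388) and 0.69 against naïve corneas (standard error 0.09, adjusted p = 6.76e-05). The call against anti-*Vegf* was lost when any 1 of the 8 arrays was left out, with adjusted p up to 0.0912, and that against IgG was lost without IgG array F17, with a difference of 0.31.

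*Hsp90b1* encodes GRP94, the Hsp90 of the same compartment. It read 11.90, 11.90, 12.02 and 11.96 with dexamethasone, 11.61, 11.65, 11.78 and 11.59 with anti-*Vegf*, 11.36, 11.57, 11.75 and 11.60 with IgG and 11.18, 11.17, 11.13 and 11.07 in naïve corneas. The dexamethasone arrays were highest, the naïve arrays lowest, and the antibody groups lay between them without overlap with either. It was 1.75-fold higher than naïve (log2 standard error 0.08, adjusted p = 3.70e-06), 1.3-fold higher than IgG (log2 standard error 0.08, adjusted p = 0.00768) and 1.22-fold higher than anti-*Vegf* (log2 standard error 0.08, adjusted p = 0.0381). In the IgG and anti-*Vegf* groups its difference from naïve was 0.43 and 0.52, below the fold limit with adjusted p = 0.000904 and 0.000189. The call against anti-*Vegf* was lost without any 1 of 7 of the 8 arrays.

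*Dnajb11* (ERdj3), a soluble J protein that delivers unfolded protein to BiP, had signals of 10.04, 10.19, 10.06 and 10.07 on the dexamethasone arrays. Those on the anti-*Vegf* arrays were 9.64, 9.50, 9.68 and 9.70, on the IgG arrays 9.48, 9.39, 9.58 and 9.69 and on the naïve arrays 9.36, 9.28, 9.49 and 9.48. The lowest dexamethasone array was above every array of the other groups, whose ranges overlapped each other. The difference was 0.56 against IgG (standard error 0.08, adjusted p = 0.000659), 0.46 against anti-*Vegf* (standard error 0.08, adjusted p = 0.00368) and 0.69 against naïve (standard error 0.08, adjusted p = 1.79e-05). These calls did not depend on any single array.

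*Dnajc3* (p58IPK), a J protein that works with BiP and inhibits the kinase PERK, differed between arrays of the dexamethasone group, with 10.14, 10.31, 9.79 and 9.88. It was 9.54, 9.68, 9.69 and 9.78 with IgG, 9.68, 9.82, 9.93 and 9.69 with anti-*Vegf* and 9.38, 9.54, 9.28 and 9.40 in naïve corneas. Dexamethasone arrays did not overlap with IgG or naïve arrays and overlapped with anti-*Vegf* arrays. The difference was 0.35 against IgG (standard error 0.11, adjusted p = 0.0462), 0.63 against naïve (standard error 0.11, adjusted p = 0.000476) and 0.25 against anti-*Vegf*, which was not called (adjusted p = 0.182). *Dnajc10* (ERdj5), a J protein that also reduces disulphide bonds, and *Dnajc1* (ERdj1), a membrane J protein, were higher than in IgG corneas by 0.34 (standard error 0.10, adjusted p = 0.0346) and 0.29 (standard error 0.07, adjusted p = 0.0158). *Dnajc1* was also higher than in anti-*Vegf* corneas, by 0.27 (standard error 0.07, adjusted p = 0.0323), where *Dnajc10* was not called (0.13, adjusted p = 0.47). The other probe set of *Dnajc10* was at 0.32 against IgG and was not called. The 2 other probe sets of *Dnajc1* were not called and differed by −0.24 and 0.03 against IgG and by −0.11 and 0.15 against anti-*Vegf*.

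The stress elements printed above are in the promoters of 3 of these 6 genes. Genes of the unfolded protein response and of folding in the endoplasmic reticulum that are not heat shock proteins were counted from a list of 26, of which 23 were measured. Against IgG 4 of 23 were called higher, against anti-*Vegf* 2 and against naïve corneas 6, and none lower. Among all genes 7.41%, 4.63% and 8.19% were called higher in these comparisons. The medians of the 23 were 0.10, 0.14 and 0.34. *Creld2*, an endoplasmic reticulum stress protein, was higher in dexamethasone corneas in all 3 comparisons, by 0.57, 0.38 and 0.78 (adjusted p = 0.00134, 0.0197 and 1.94e-05). *Sdf2l1*, which acts with BiP, was 1.05 above naïve (standard error 0.15, adjusted p = 0.000123), but it was also called higher in IgG and anti-*Vegf* corneas, by 0.71 and 0.98 (adjusted p = 0.0025 and 0.000195). The protein disulphide isomerase *Pdia6* was 0.80 above naïve (standard error 0.08, adjusted p = 5.28e-06) and 0.27 above IgG (standard error 0.08, adjusted p = 0.0481).

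**Figure D2:**
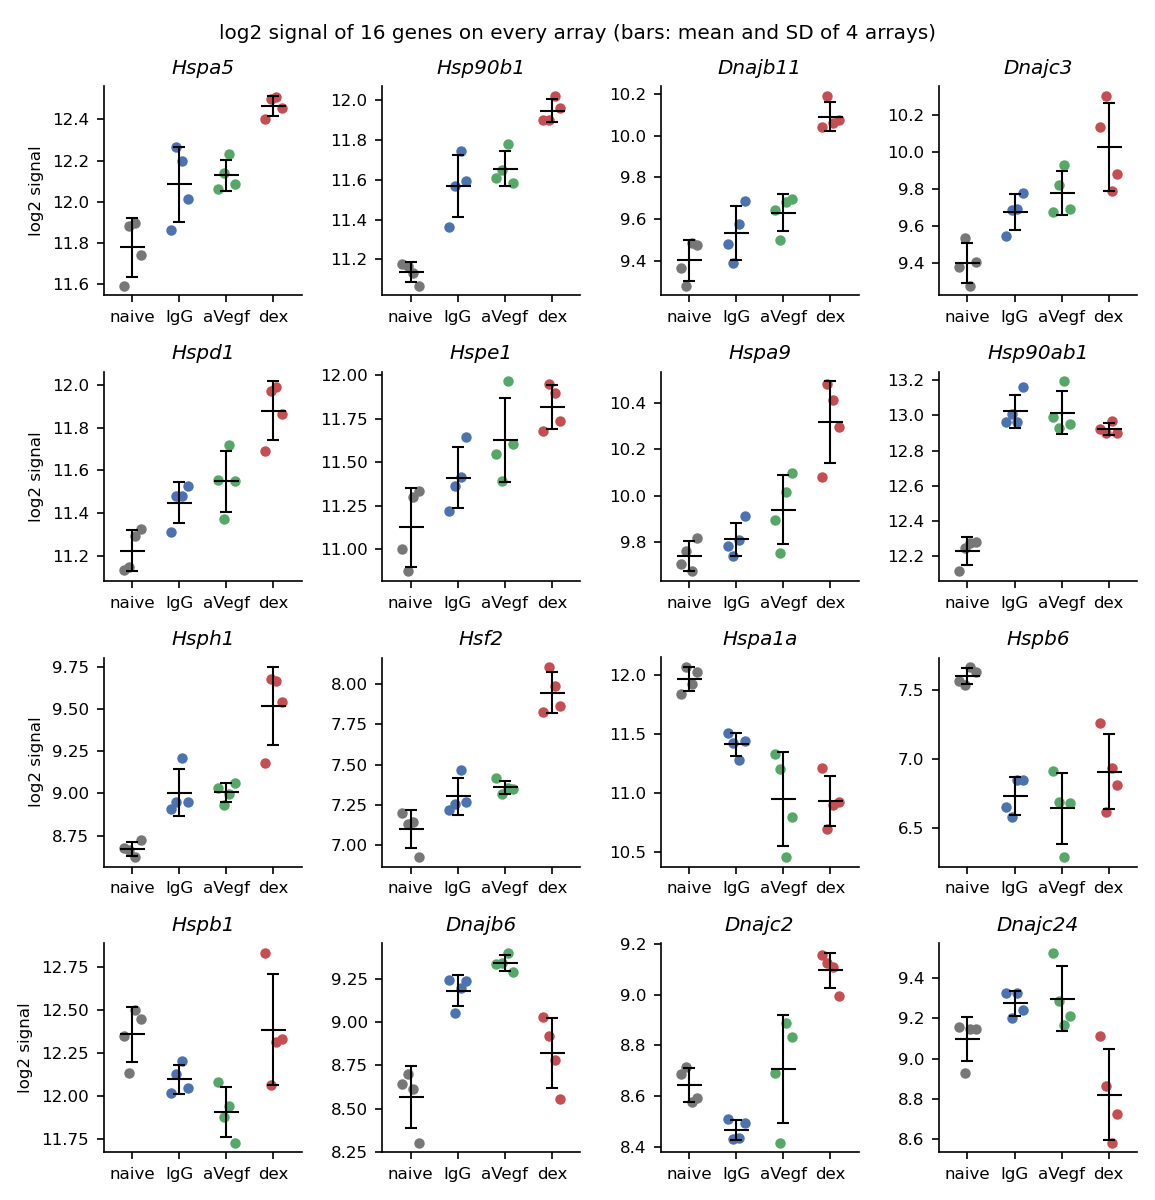
log2 signal (vertical axes, scaled separately per gene) of 16 genes on each of the 16 arrays, with aVegf for anti-*Vegf* and dex for dexamethasone, where long marks and bars give the mean and SD of 4 arrays. For *Hspa5*, *Hsp90b1*, *Dnajb11*, *Hsf2* and *Dnajc2* every dexamethasone array lies above every other array, and for *Hsp90ab1* all sutured groups lie together above naïve.

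Of 9 measured chaperone genes of the mitochondrion 2, *Hspa9* and *Hspd1*, were called higher with dexamethasone than with either antibody, and *Hspd1* and *Hspe1* were called higher than in naïve corneas. The median of the 9 was 0.11 against IgG, 0.12 against anti-*Vegf* and 0.09 against naïve. Over all genes 7.41%, 4.63% and 8.19% were called higher in these comparisons. The mitochondrial J proteins *Dnaja3*, *Dnajc4*, *Dnajc11*, *Dnajc15*, *Dnajc19* and *Dnajc30* were not called in any comparison. The largest of their differences from IgG corneas was 0.32 for *Dnajc11* (adjusted p = 0.109).

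*Hspd1* (Hsp60), the barrel of the mitochondrial chaperonin, read 11.69, 11.97, 11.99 and 11.86 with dexamethasone, 11.31, 11.48, 11.48 and 11.53 with IgG, 11.56, 11.37, 11.72 and 11.55 with anti-*Vegf* and 11.14, 11.15, 11.29 and 11.33 in naïve corneas. Dexamethasone arrays lay above all IgG and naïve arrays, and 1 of them lay within the anti-*Vegf* range. The difference was 0.43 against IgG (standard error 0.09, adjusted p = 0.00776), 0.33 against anti-*Vegf* (standard error 0.09, adjusted p = 0.0396) and 0.65 against naïve (standard error 0.09, adjusted p = 8.92e-05). The call against anti-*Vegf* was lost without any 1 of 6 of the 8 arrays.

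*Hspe1* (Hsp10), its lid, is the neighbour of *Hspd1*, and the heat shock elements printed above lie in the promoter windows of both. It was 11.68, 11.95, 11.90 and 11.74 with dexamethasone, 11.22, 11.36, 11.41 and 11.65 with IgG, 11.55, 11.39, 11.97 and 11.60 with anti-*Vegf* and 11.00, 10.87, 11.30 and 11.33 in naïve corneas. The naïve arrays fell into a lower and a higher pair, and anti-*Vegf* array F6 was the highest of all 16. The difference was 0.69 against naïve (standard error 0.13, adjusted p = 0.00129), and 0.41 against IgG did not pass the test (adjusted p = 0.0653), although every dexamethasone array was above every IgG array.

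*Hspa9* (mortalin), the Hsp70 of the mitochondrial matrix, had signals of 10.08, 10.48, 10.41 and 10.30 with dexamethasone, 9.78, 9.74, 9.81 and 9.91 with IgG, 9.89, 9.75, 10.01 and 10.10 with anti-*Vegf* and 9.70, 9.76, 9.67 and 9.82 in naïve corneas. Dexamethasone arrays were above all IgG and naïve arrays and overlapped with anti-*Vegf*. The difference was 0.51 against IgG (standard error 0.09, adjusted p = 0.00339) and 0.38 against anti-*Vegf* (standard error 0.09, adjusted p = 0.0236). Its 3 other probe sets differed by 0.12, 0.28 and −0.07 against IgG and by 0.07, −0.17 and −0.07 against anti-*Vegf* and were not called, and with the mean of the 4 both calls were lost (0.21 against IgG and 0.05 against anti-*Vegf*). *Grpel2*, a nucleotide exchange factor of mortalin and no member of the families above, was lower with dexamethasone than with IgG (log2 difference −0.47, standard error 0.09, adjusted p = 0.00402), and than with anti-*Vegf* (log2 difference −0.39, standard error 0.09, adjusted p = 0.0154). It was the only called gene among the 10 measured mitochondrial folding and protease genes in these comparisons, and *Clpx*, which unfolds proteins for the matrix protease, was the only one called against naïve, at −0.68 (standard error 0.11, adjusted p = 0.000461).

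A list of heat shock genes of the cytosol and nucleus, drawn up as heat-inducible, also holds genes with other known roles, among them *Hsp90ab1*, a constitutive Hsp90, and *Hsf2*, a factor known from development. Of 13 measured, 3 were called higher and none lower with dexamethasone against IgG (*Hsf2*, *Hsph1* and *Stip1*), and 3 higher and none lower against anti-*Vegf* (*Hsf2*, *Hsph1* and *Hspb1*). Against naïve, 3 were higher (*Hsph1*, *Hsf2* and *Hsp90ab1*) and *Hspa1a* was lower. The medians of the 13 were 0.13, 0.21 and 0.22. Shares of all genes called higher were 7.41%, 4.63% and 8.19%, and 4.45% were called lower against naïve.

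*Hsph1* (Hsp110), a nucleotide exchange factor for Hsp70 that also prevents aggregation, read 9.18, 9.67, 9.67 and 9.54 with dexamethasone, 8.91, 8.95, 9.21 and 8.95 with IgG, 9.03, 8.93, 9.0 and 9.06 with anti-*Vegf* and 8.67, 8.66, 8.62 and 8.72 in naïve corneas. Naïve arrays were lowest, and dexamethasone array F25 was the lowest of its group and below IgG array F22. It was 1.8-fold higher than naïve (log2 standard error 0.10, adjusted p = 2.22e-05), 1.43-fold higher than IgG (log2 standard error 0.10, adjusted p = 0.00486) and 1.42-fold higher than anti-*Vegf* (log2 standard error 0.10, adjusted p = 0.00748). Its other probe set was called higher than naïve as well, by 0.78, and its difference of 0.16 from IgG was not called. With the mean of both probe sets the calls against IgG (0.34, adjusted p = 0.0677) and anti-*Vegf* (0.38, adjusted p = 0.0559) were lost.

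*Hsf2*, which also forms heteromers with Hsf1, was 7.83, 8.10, 7.99 and 7.86 with dexamethasone, 7.22, 7.25, 7.47 and 7.27 with IgG, 7.42, 7.32, 7.36 and 7.35 with anti-*Vegf* and 7.20, 7.13, 7.14 and 6.93 in naïve corneas. All 4 dexamethasone arrays were above the other 12. The difference was 0.64 against IgG (standard error 0.08, adjusted p = 0.000316), 0.58 against anti-*Vegf* (standard error 0.08, adjusted p = 0.00105) and 0.84 against naïve (standard error 0.08, adjusted p = 3.68e-06). Its 3 other probe sets differed from IgG by 0.30, 0.29 and 0.06 and from anti-*Vegf* by −0.20, 0.30 and 0.02, and none of these was called. The first of them was called higher with anti-*Vegf* than in naïve corneas, by 0.76. With the mean of the 4 probe sets the call against anti-*Vegf* was lost (0.18, adjusted p = 0.253) and the difference from naïve was 0.41, under the fold limit. *Hsf1*, the factor that drives the acute heat shock response, was not called in any comparison, and its difference from IgG was 0.19 (adjusted p = 0.218).

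*Hsp90ab1*, the constitutive cytosolic Hsp90, rose in every sutured group. Its log2 signal was 12.11, 12.24, 12.27 and 12.28 in naïve corneas, 12.96, 13.01, 12.96 and 13.16 with IgG, 12.99, 12.93, 13.19 and 12.95 with anti-*Vegf* and 12.92, 12.90, 12.97 and 12.90 with dexamethasone. No naïve array reached any sutured one, and the 3 sutured groups overlapped. It was 1.73-fold, 1.73-fold and 1.62-fold higher than naïve (adjusted p = 2.44e-06, 2.58e-06 and 9.12e-06). Dexamethasone differed from IgG by −0.10 (95% interval −0.26 to 0.06). A further probe set of the gene rose by 0.64 with dexamethasone, and its differences of 0.30 with IgG and 0.33 with anti-*Vegf* were not called. With the mean of both probe sets the rises with IgG and anti-*Vegf* were 0.55 and 0.56, under the fold limit.

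*Hspa1a*, the stress-inducible Hsp70, fell. Its log2 signal was 11.83, 12.06, 11.92 and 12.02 in naïve corneas, 11.51, 11.42, 11.28 and 11.43 with IgG, 11.33, 11.20, 10.45 and 10.80 with anti-*Vegf* and 11.20, 10.69, 10.90 and 10.92 with dexamethasone. Every sutured cornea was below every naïve one, and anti-*Vegf* and dexamethasone arrays overlapped. It was 2.02-fold lower than naïve with anti-*Vegf* (log2 standard error 0.15, adjusted p = 0.000164) and 2.05-fold lower with dexamethasone (log2 standard error 0.15, adjusted p = 0.000167), calls that held under all alternatives. With IgG the difference of −0.55 was under the fold limit (adjusted p = 0.0143), and dexamethasone against IgG was not called (−0.48, adjusted p = 0.0598). Its coding sequence is nearly the same as that of *Hspa1b*, so the probe set may read both genes.

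*Bag3*, a cochaperone that joins Hsp70 to small heat shock proteins and to autophagy, read 10.95, 10.96, 10.89 and 10.84 in naïve corneas, 10.35, 10.32, 10.12 and 10.42 with anti-*Vegf*, 10.65, 10.55, 10.51 and 10.20 with IgG and 10.71, 10.43, 10.52 and 10.81 with dexamethasone. All sutured arrays were below the naïve ones. It was called lower with anti-*Vegf* (log2 difference −0.61, standard error 0.11, adjusted p = 0.000475), while the differences of −0.43 with IgG (adjusted p = 0.00609) and −0.29 with dexamethasone (adjusted p = 0.0582) were not called. Without anti-*Vegf* array F6 the difference was −0.55, under the fold limit.

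Other cochaperones of this compartment were called in few comparisons or in none, and some differed from naïve under the fold limit. *Stip1* (Hop), which passes clients from Hsp70 to Hsp90, was higher with dexamethasone than with IgG, by 0.34 (standard error 0.10, adjusted p = 0.0429), and this call was lost without any 1 of the 8 arrays. *Dnajb1*, the main heat-inducible J protein of the cytosol, and *Dnaja1* were not called with the probe set used. *Dnajb1* differed from naïve by 0.42, 0.33 and 0.31 in the IgG, anti-*Vegf* and dexamethasone groups (adjusted p = 0.00811, 0.035 and 0.047). Its other probe set was called higher with IgG than in naïve corneas, by 0.77, and lower with dexamethasone than with IgG (log2 difference −0.51). *Dnajb4* differed from naïve by −0.43, −0.51 and −0.30, also under the fold limit (adjusted p = 0.000906, 0.000211 and 0.0116). *Hspa4l* was dim and was not called.

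A list of 28 genes, all measured, held cytosolic cochaperones and chaperonin subunits outside the families above, together with the glucocorticoid receptor *Nr3c1*, the heat shock factor *Hsf4* and the small heat shock protein *Cryab*. Of these, 15 were called higher with dexamethasone than with IgG and 7 than with anti-*Vegf*, *Cryab* among them in both, and none lower. The medians of the 28 were 0.32 and 0.19. Among all genes 7.41% and 4.63% were called higher in these comparisons. The subunits of the chaperonin that folds actin and tubulin (*Tcp1* and the *Cct* genes), singled out after their values were seen, were all 8 called higher against IgG, between 0.27 and 0.63, and 4 of 8 against anti-*Vegf*. *Fkbp5*, a cochaperone of the glucocorticoid receptor and a known glucocorticoid target, was 10.46, 8.37, 9.71 and 8.41 with dexamethasone, 7.29, 7.46, 7.45 and 8.06 with IgG, 7.49, 7.07, 6.83 and 7.09 with anti-*Vegf* and 9.15, 9.29, 9.26 and 9.36 in naïve corneas. It was 3.19-fold higher with dexamethasone than with IgG (log2 standard error 0.35, adjusted p = 0.007) and 3.25-fold lower with IgG than in naïve corneas (log2 standard error 0.35, adjusted p = 0.00187). *Nr3c1*, the glucocorticoid receptor, was lower than naïve, with log2 differences of −0.70, −0.71 and −0.72 in the IgG, anti-*Vegf* and dexamethasone groups (adjusted p = 0.000656, 0.000534 and 0.000556).

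**Figure D3:**
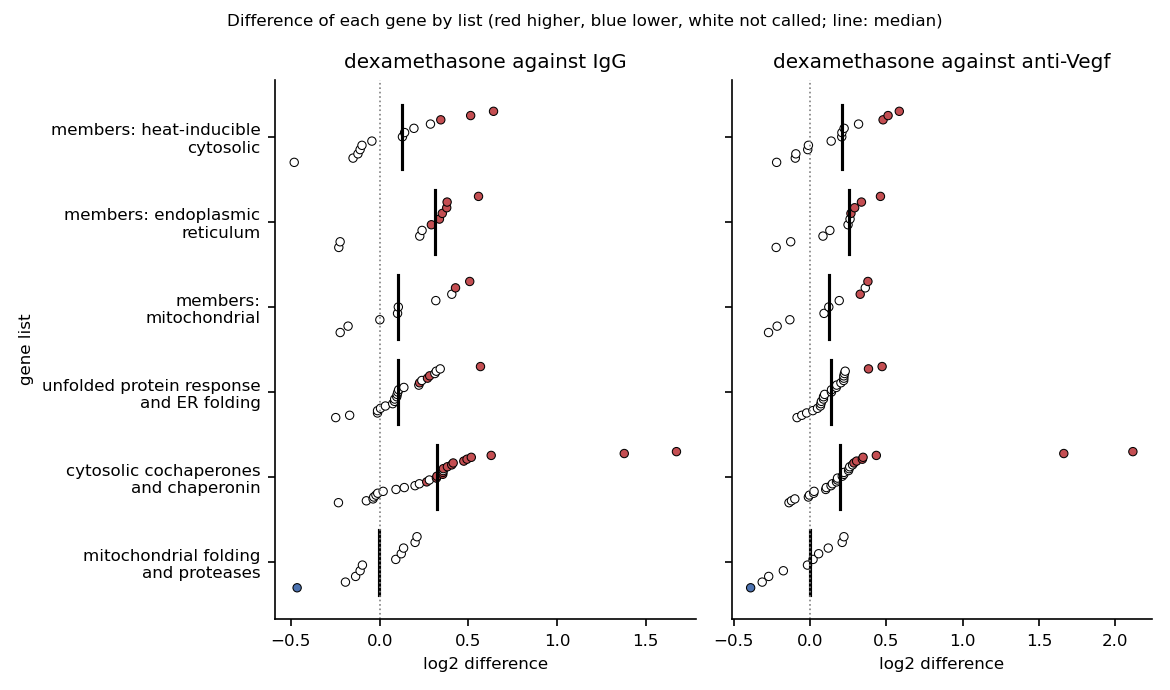
log2 difference (horizontal axes) of dexamethasone from IgG (left) and from anti-*Vegf* (right) for the genes of 3 lists of heat shock proteins and cochaperones and 3 lists of other folding genes, with a point per gene and a line at the median. Called genes are red and, in *Grpel2* alone, blue, and the points at the far right are *Fkbp5* and *Cryab*.

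Small heat shock proteins showed few changes. *Hspb6* (Hsp20), known best from muscle, was 7.57, 7.54, 7.67 and 7.63 in naïve corneas, 6.65, 6.58, 6.85 and 6.85 with IgG, 6.92, 6.69, 6.29 and 6.68 with anti-*Vegf* and 7.26, 6.62, 6.94 and 6.81 with dexamethasone. All sutured arrays were below the naïve ones. It was 1.83-fold, 1.94-fold and 1.62-fold lower than naïve (adjusted p = 0.000223, 8.60e-05 and 0.00141), and these calls held under all alternatives. The mean of the 11 muscle markers differed from naïve by −0.04, −0.07 and −0.10 in the same groups. Of these markers, 6 were below the dim limit, and in each sutured group 1 was called lower than naïve. The mean of the keratocyte markers was 12.01 in naïve corneas, 11.47 with IgG, 11.17 with anti-*Vegf* and 11.75 with dexamethasone. The part of the muscle and keratocyte markers in the fall of *Hspb6* was not tested.

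*Hspb1* (Hsp27), which binds actin and unfolded proteins, read 12.83, 12.06, 12.31 and 12.33 with dexamethasone, 12.08, 11.87, 11.94 and 11.72 with anti-*Vegf*, 12.01, 12.12, 12.20 and 12.04 with IgG and 12.35, 12.13, 12.50 and 12.45 in naïve corneas. Its dexamethasone arrays were widely spread, with F25 the highest of all 16. The difference from anti-*Vegf* was 0.48 (standard error 0.13, adjusted p = 0.0417), and the call was lost without any 1 of 6 of the 8 arrays, with 0.33 and adjusted p = 0.0884 without F25. The difference from IgG, 0.29, was not called (adjusted p = 0.197). *Hspb8*, a partner of Bag3, was not called with this probe set, and its IgG arrays ranged from 6.07 to 7.51. Another probe set of it was called higher with IgG than in naïve corneas, by 0.71. *Cryab*, a small heat shock protein under another symbol that is abundant in the lens, was 9.45, 10.89, 9.13 and 9.07 with dexamethasone, 8.06, 8.08, 8.43 and 8.45 with IgG, 7.96, 8.13, 7.81 and 7.98 with anti-*Vegf* and 9.44, 9.48, 10.03 and 9.70 in naïve corneas. It was lower than naïve with IgG (log2 difference −1.41, adjusted p = 0.00197) and with anti-*Vegf* (−1.69, adjusted p = 0.000451), and its difference from naïve with dexamethasone was −0.03 (adjusted p = 0.961). With dexamethasone it was 2.6-fold higher than with IgG (log2 standard error 0.29, adjusted p = 0.00758), and its highest array, F26, was the one with the highest lens markers (9.24), while the naïve arrays had lens markers of 5.15 to 6.02.

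*Dnajb6*, which suppresses protein aggregation, was 8.65, 8.70, 8.61 and 8.30 in naïve corneas, 9.24, 9.05, 9.20 and 9.24 with IgG, 9.33, 9.34, 9.40 and 9.29 with anti-*Vegf* and 9.03, 8.92, 8.78 and 8.56 with dexamethasone. The antibody groups were above the naïve arrays, and the dexamethasone arrays overlapped with naïve and lay below both antibody groups. It was 1.53-fold and 1.71-fold higher than naïve with IgG and anti-*Vegf* (adjusted p = 0.000412 and 5.42e-05). Without naïve array 4 the difference with IgG was 0.53, under the fold limit. With dexamethasone it was lower than with anti-*Vegf* (log2 difference −0.52, standard error 0.10, adjusted p = 0.00809) and than with IgG (log2 difference −0.36, standard error 0.10, adjusted p = 0.0369), the latter lost without any 1 of 6 of the 8 arrays.

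*Dnajc2*, which acts on nascent proteins at the ribosome, was 9.16, 9.12, 9.11 and 9.0 with dexamethasone, 8.51, 8.43, 8.44 and 8.50 with IgG, 8.69, 8.42, 8.89 and 8.83 with anti-*Vegf* and 8.69, 8.72, 8.58 and 8.59 in naïve corneas. IgG arrays had the lowest group mean and anti-*Vegf* arrays were spread, with F2 the lowest of all 16. The difference was 0.63 against IgG (standard error 0.09, adjusted p = 0.000635) and 0.39 against anti-*Vegf* (standard error 0.09, adjusted p = 0.017). Its other probe set differed by −0.15 and −0.19 and was not called, and with the mean of both the call against anti-*Vegf* was lost (0.10).

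*Dnajc24*, needed to make the diphthamide residue of elongation factor eEF2, was lower with dexamethasone than with either antibody. It read 9.11, 8.86, 8.58 and 8.73, against 9.33, 9.20, 9.33 and 9.24 with IgG and 9.53, 9.29, 9.16 and 9.21 with anti-*Vegf*, without overlap. Naïve corneas, at 9.16, 8.93, 9.15 and 9.15, overlapped with dexamethasone, and that difference was not called. The difference was −0.45 against IgG (standard error 0.11, adjusted p = 0.0145) and −0.48 against anti-*Vegf* (standard error 0.11, adjusted p = 0.0154). Without dexamethasone array F27 the first was −0.37 with adjusted p = 0.051. Its other probe set was at −0.23 and −0.25 and was not called. *Dnajc12*, which binds aromatic amino acid hydroxylases, was higher with dexamethasone than with IgG by 0.41 (standard error 0.10, adjusted p = 0.014) and than with anti-*Vegf* by 0.52 (standard error 0.10, adjusted p = 0.00531). Its naïve arrays were at 6.94, 6.76, 6.55 and 6.56, and its difference from naïve with dexamethasone was not called.

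*Hspa12a*, a distant Hsp70 relative, was higher with dexamethasone than with anti-*Vegf* by 0.64 (standard error 0.15, adjusted p = 0.0199). Its arrays were 7.11, 7.81, 7.50 and 7.54 with dexamethasone and 6.90, 7.14, 6.51 and 6.87 with anti-*Vegf*, which overlapped. Naïve arrays, at 7.56, 7.25, 7.10 and 7.14, overlapped with both, and neither group was called against naïve. The call against anti-*Vegf* was lost without anti-*Vegf* array F6 (0.52, adjusted p = 0.0672), without dexamethasone array F26 (0.53, adjusted p = 0.0633) and with only the compared groups in the fit. Against IgG the difference was 0.50 (standard error 0.15, adjusted p = 0.0471), and this call was lost without any 1 of 7 of the 8 arrays. *Dnajc9*, a histone chaperone, was higher than with IgG by 0.29 (standard error 0.08, adjusted p = 0.0399), and *Dnajc27*, a small GTPase with a J domain, was higher than with anti-*Vegf* by 0.32 (standard error 0.08, adjusted p = 0.0327).

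*Dnaja4*, a J protein of the cytosol, was lower than naïve, with a log2 difference of −0.67 with anti-*Vegf* (standard error 0.12, adjusted p = 0.000631) and −0.77 with dexamethasone (standard error 0.12, adjusted p = 0.000231). Its arrays were 10.46, 10.55, 10.48 and 10.58 in naïve corneas and 10.01, 9.50, 9.73 and 9.75 with dexamethasone. Without anti-*Vegf* array F6 the first was −0.57, under the fold limit. Its other probe set was called lower in the same comparisons (log2 differences −0.68 and −1.07), and also lower with dexamethasone than with IgG (−0.79), where the main probe set was not called (−0.31, adjusted p = 0.117). *Dnajc7*, which binds both Hsp70 and Hsp90, was lower with anti-*Vegf* (log2 difference −0.59, standard error 0.08, adjusted p = 4.38e-05), close to the fold limit. The call was lost without any 1 of 4 of the 8 arrays (F2, F7, naïve 1 or naïve 3, with −0.57 to −0.55) and after cyclic loess (−0.58). Its 2 other probe sets were at 0.05 and 0.14, and with the mean of the 3 the difference was −0.13 (adjusted p = 0.15). *Dnajb3* was called higher in all sutured groups, by 0.60, 0.72 and 0.62, on dim signals of 3.92 to 5.20, and the calls with IgG and dexamethasone were lost without naïve array 2 or naïve array 4. Both were also lost after centring on reference genes, the IgG call without array F22 or F23, and the dexamethasone call without F26. *Dnajc5*, the cysteine string protein of secretory vesicles, was not called on its brightest probe set, with differences from naïve of −0.03, 0.02 and −0.03. Another of its probe sets was called higher with IgG and with anti-*Vegf* than naïve, by 0.61 in both, and lower with dexamethasone than with IgG (−0.40).

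**Figure D4:**
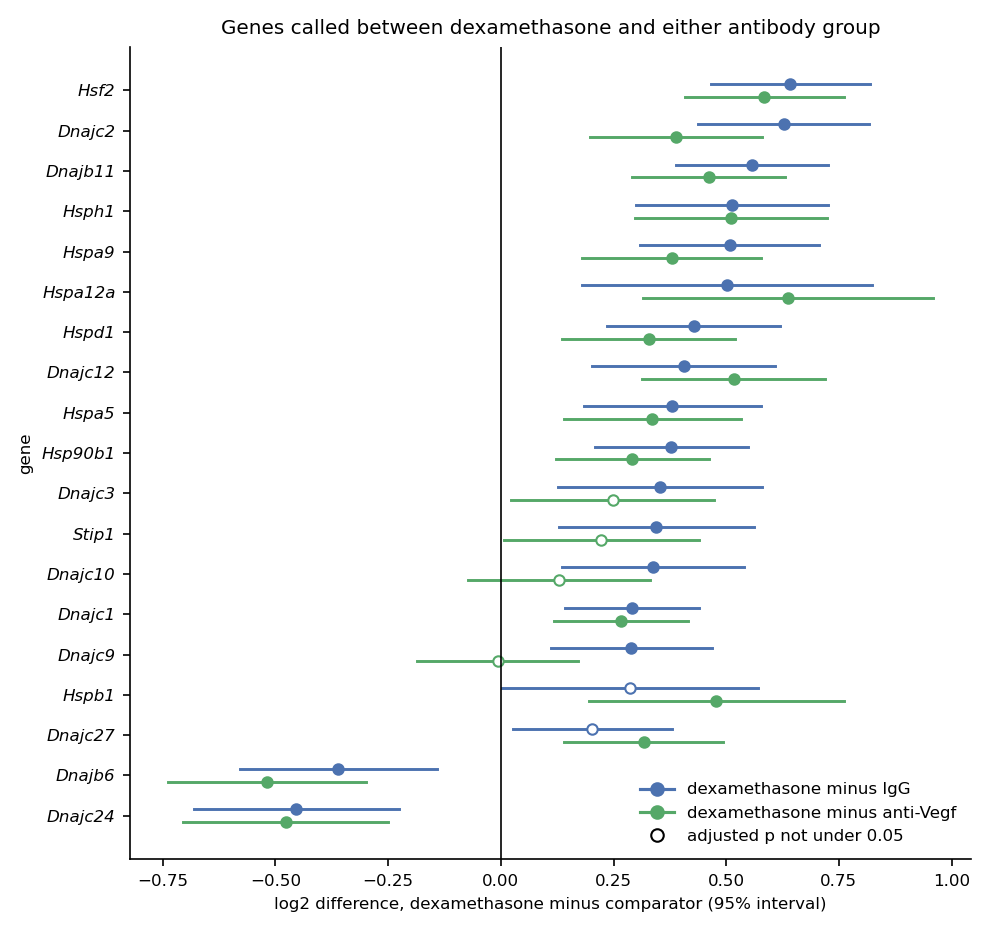
log2 difference (horizontal axis) of dexamethasone from IgG (blue) and from anti-*Vegf* (green) for the 19 genes called in either comparison, with 95% intervals and open symbols where the adjusted p was not under 0.05. *Hsf2* and *Dnajb11* lie above 0.4 in both comparisons, and *Dnajb6* and *Dnajc24* lie below 0.

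In sutured corneas given an antibody, fewer of the 68 genes were called against naïve at the 1.5-fold limit. With IgG 3 were higher than naïve (*Hsp90ab1*, *Dnajb6* and *Dnajb3*) and *Hspb6* was lower, where 6.32% of all genes were called higher and 5.02% lower. With anti-*Vegf* the same 3 were higher and 5 were lower (*Hspa1a*, *Hspb6*, *Dnaja4*, *Bag3* and *Dnajc7*), where 6.82% of all genes were called higher and 5.94% lower. When arrays were centred on reference genes, IgG gave 1 higher and 4 lower, and dexamethasone 7 higher and 4 lower than naïve. Of all genes, 807 were then called higher and 894 lower with IgG, and 968 and 875 with dexamethasone.

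Anti-*Vegf* and IgG corneas were not told apart in these genes. By limma 0 of the 68 were called in either direction, where 0% of all genes were called higher and 0% lower. At an unadjusted p under 0.05 there were 6 of the 68 and 942 of all genes. Log2 differences over the 68 genes ranged from −0.47 for *Hspa1a* (95% interval −0.79 to −0.14) to 0.30 for *Dnajc9* (95% interval 0.12 to 0.47).

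The number of arrays limited the treatment comparisons. Of the 17 genes called between dexamethasone and IgG, 8 kept the call whichever array was left out (*Dnajb11*, *Dnajc2*, *Dnajc12*, *Hsf2*, *Hsp90b1*, *Hspa9*, *Hspd1* and *Hsph1*). Of the 15 called between dexamethasone and anti-*Vegf*, 7 did (*Dnajb11*, *Dnajb6*, *Dnajc2*, *Dnajc12*, *Dnajc24*, *Hsf2* and *Hsph1*). Of the 17 genes, 7 have other probe sets, and of these 12 probe sets 9 moved in the same direction, by limma 0 of them called and 2 at an unadjusted p under 0.05. Of the 15 genes, 6 have other probe sets, and of these 11 probe sets only 6 moved in the same direction. By limma 0 of these were called and 1 was at an unadjusted p under 0.05. Between dexamethasone and IgG only *Hsf2* and *Dnajc2* differed by 1.5-fold or more, and between dexamethasone and anti-*Vegf* only *Hspa12a*.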

How the data were processed

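RNA of 16 rat corneas, 4 per group, was measured on Affymetrix expression arrays. The authors deposited 1 table of log2 signals per probe set, which per the labels and methods were summarized and normalized by RMA in Affymetrix Expression Console, and 0 sample columns were left unused. RMA sets all arrays to nearly the same distribution (array medians 6.55 to 6.62), so a shift common to most genes cannot be seen. The deposited log2 signals were used without further scaling. Probe sets were named from the platform annotation, in which 20826 carried 1 gene symbol, 436 several and 9780 none. The 57 control probe sets were left out.

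A mean per group was fitted with limma 3.58.1 in R 4.3.3 on all 16 arrays (12 residual degrees of freedom), and p-values were adjusted by Benjamini-Hochberg over 31042 probe sets. This fit was tested on simulated data. Marker means were compared by exact two-sided permutation tests. Array number, 4 per group, limits the precision. The rule, the gene lists and the tests were chosen with earlier results of these data known. Genes named with values were the 6 largest rises and 6 largest falls called per comparison, the gene with the highest mean signal per family, the heat-inducible list, genes named in the study's supplementary tables (*Bag3*, *Dnajb6*, *Dnajc5* and *Hsp90b1*), and up to 3 genes per list of other folding genes. The remaining called genes, the named mitochondrial J proteins, those of the endoplasmic reticulum that were not called and the chaperonin subunits were named after their values were seen. Alternatives changed the arrays in the fit, variance model, centring, dim filter, reading of several probe sets and fold limit. RefSeq promoters (GRCr8) gave sequence only. Another build was not used.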

Additional observations from a re-analysis of the deposited data

Results flagged for a closer look

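In 124 groups of 4 arrays examined, 5 held 1 array far from the other 3 by Dixon's test, where chance alone gives about 1 in 20. *Dnaja1* was at 9.85 on IgG array F17, and its nearest neighbour was at 10.18. *Dnaja2* was at 11.34 on dexamethasone array F30, against 11.49 to 11.50 on the others. *Dnajb4* was at 8.61 on anti-*Vegf* array F6, against 8.74 to 8.76. *Dnajc24* was at 8.93 on naïve array 2, against 9.15 to 9.16. *Hsph1* was at 9.21 on IgG array F22, against 8.91 to 8.95 on the others of that group, and this array is the one that overlapped with dexamethasone.

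The poly-A control probe sets, which read transcripts added to the sample and no rat gene, differed between the array groups. They were 2.11 higher on the log2 scale on IgG arrays and 1.90 higher on anti-*Vegf* arrays than on naïve arrays. Their part in the differences of the heat shock genes was not tested.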

How the results depend on the processing

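All called values of the 5 comparisons with calls kept their direction under each alternative run, and anti-*Vegf* against IgG gave 0 calls under each of them. Without the fold limit, 20 of the 68 genes were called with IgG, 30 with anti-*Vegf* and 28 with dexamethasone against naïve, instead of 4, 8 and 13. Of all 14217 genes, 1906 were then called higher and 2239 lower with IgG, 2088 and 2263 with anti-*Vegf*, and 2284 and 1765 with dexamethasone. With a limit of 1.5-fold, 1 gene was called between dexamethasone and anti-*Vegf* and 2 between dexamethasone and IgG. That limit left 250 higher and 139 lower of all genes against anti-*Vegf*, and 300 and 156 against IgG. With only the compared groups in the fit, 6 were called between dexamethasone and anti-*Vegf* instead of 15. Over all genes, 346 were higher and 198 lower in that fit, instead of 658 and 355. Leaving out 1 array gave 8 to 11 calls for dexamethasone against anti-*Vegf* (8 without F2, F26 or F27) and 9 to 15 instead of 17 against IgG (9 without F17, 10 without F26, 11 without F27). Calls over all genes fell too, without F27 to 413 higher and 247 lower against anti-*Vegf* and to 676 and 265 against IgG. Against naïve, leaving out 1 array gave 3 to 6 calls with IgG, 6 to 9 with anti-*Vegf* and 11 to 14 with dexamethasone. Centring on reference genes gave 11 higher and 2 lower for dexamethasone against IgG, where 852 of all genes were called higher and 540 lower. Of the 50 called values of named genes, 16 kept the call under every alternative and 17 lost it when an array was left out. A stricter fold limit lowers a count by construction, and the cause of the other shifts was not tested. No paired analysis was possible because the groups share no replicate numbers.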
